A study of Mus musculus with 2 samples.

Results

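Formins are the actin assembly factors described here, in single nuclei of the mouse hippocampus. The 9 formin genes are Diaph1, Diaph2, Diaph3, Daam1, Daam2, Fmnl1, Fmnl2, Fmn1 and Fmn2. The set is defined by gene name among the 32285 genes in the count tables, was drawn up with earlier results of these data known, and each gene was found there once by its symbol. The study compared the hippocampus of wild-type mice with that of mice heterozygous for a knockout of Capza2 (labelled CAPZA2+/-), with 1 library per genotype. Frozen tissue was homogenized, nuclei were purified by density centrifugation, and RNA was counted as unique molecular identifiers (UMIs) near the 3' end of transcripts in droplets. Neither group carried any other allele or treatment that the labels name. The sources used here do not give the age, sex or strain of the mice, their number per library or the deleted part of Capza2. With 1 library per genotype no difference between genotypes can be tested, and every interval given is a 95% interval of counting error only.

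A formin acts as a dimer that nucleates an unbranched actin filament and then rides on its growing barbed end, adding actin delivered by profilin. Capping protein, a dimer of an alpha subunit (Capza1 or Capza2) and a beta subunit (Capzb), binds the same barbed ends and stops growth, so formins and capping protein are competitors. Most formins are held shut by their own tails until an upstream signal opens them. In the brain they are known from growth cones, dendritic spines and the processes of glia.

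The heterozygote matrix held 62702888 UMIs in 7801 barcodes and the wild-type matrix 58701532 in 6512, with 13 barcode sequences in common. After filters and removal of likely doublets, 6795 nuclei remained in the heterozygote (median 5770 UMIs) and 6094 in the wild-type library (median 6658.5). They were sorted into 15 classes by marker genes, of which 8 had at least 200 nuclei in each library and were compared: dentate granule-like (2051 heterozygote and 1477 wild-type nuclei), oligodendrocyte-like (1129 and 799), CA1 pyramidal-like (781 and 906), subicular or cortical excitatory-like, a class that also carried entorhinal markers (562 and 894), inhibitory neuron-like (322 and 444), astrocyte-like (350 and 273), microglia-like (319 and 229) and CA3 pyramidal-like (219 and 209). Ttr, a choroid plexus gene often found as free RNA, was at 199 CPM (counts-per-million, the UMIs of a gene scaled to all UMIs) over all heterozygote nuclei and at 51.5 over all wild-type nuclei. Capza2 itself was at 67.5 CPM in the heterozygote and 86.0 in the wild-type library, a log2 ratio of -0.35 (-0.41 to -0.29). A cluster led by hemoglobin genes stayed unnamed, with 3.33% of heterozygote nuclei against 0.640% in the wild type, and clusters set apart as mixed had 3.93% and 3.79%.

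CPM of a class is taken over all UMIs of that class in a library. By plain CPM over all nuclei Diaph2 was highest, at 427 in the heterozygote and 410 in the wild-type library. Fmn2 was next, at 309 and 308 CPM, and Diaph3 was lowest, at 9.82 and 9.40. Per 100 kb of annotated gene span, a scale meant to allow for the unequal lengths of these genes, Fmn2 was highest over all nuclei, at 96.3 CPM in the heterozygote and 96.0 in the wild-type library. Diaph3 was lowest, at 2.02 and 1.93 CPM per 100 kb, and Daam2 was next, at 22.4 and 21.3. The other 6 lay between 36.2 (Fmn1, heterozygote) and 74.5 (Fmnl2, wild type). The sources used here do not say whether reads within introns were counted, so this scale is approximate at best and may not apply.

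**Figure D1:**
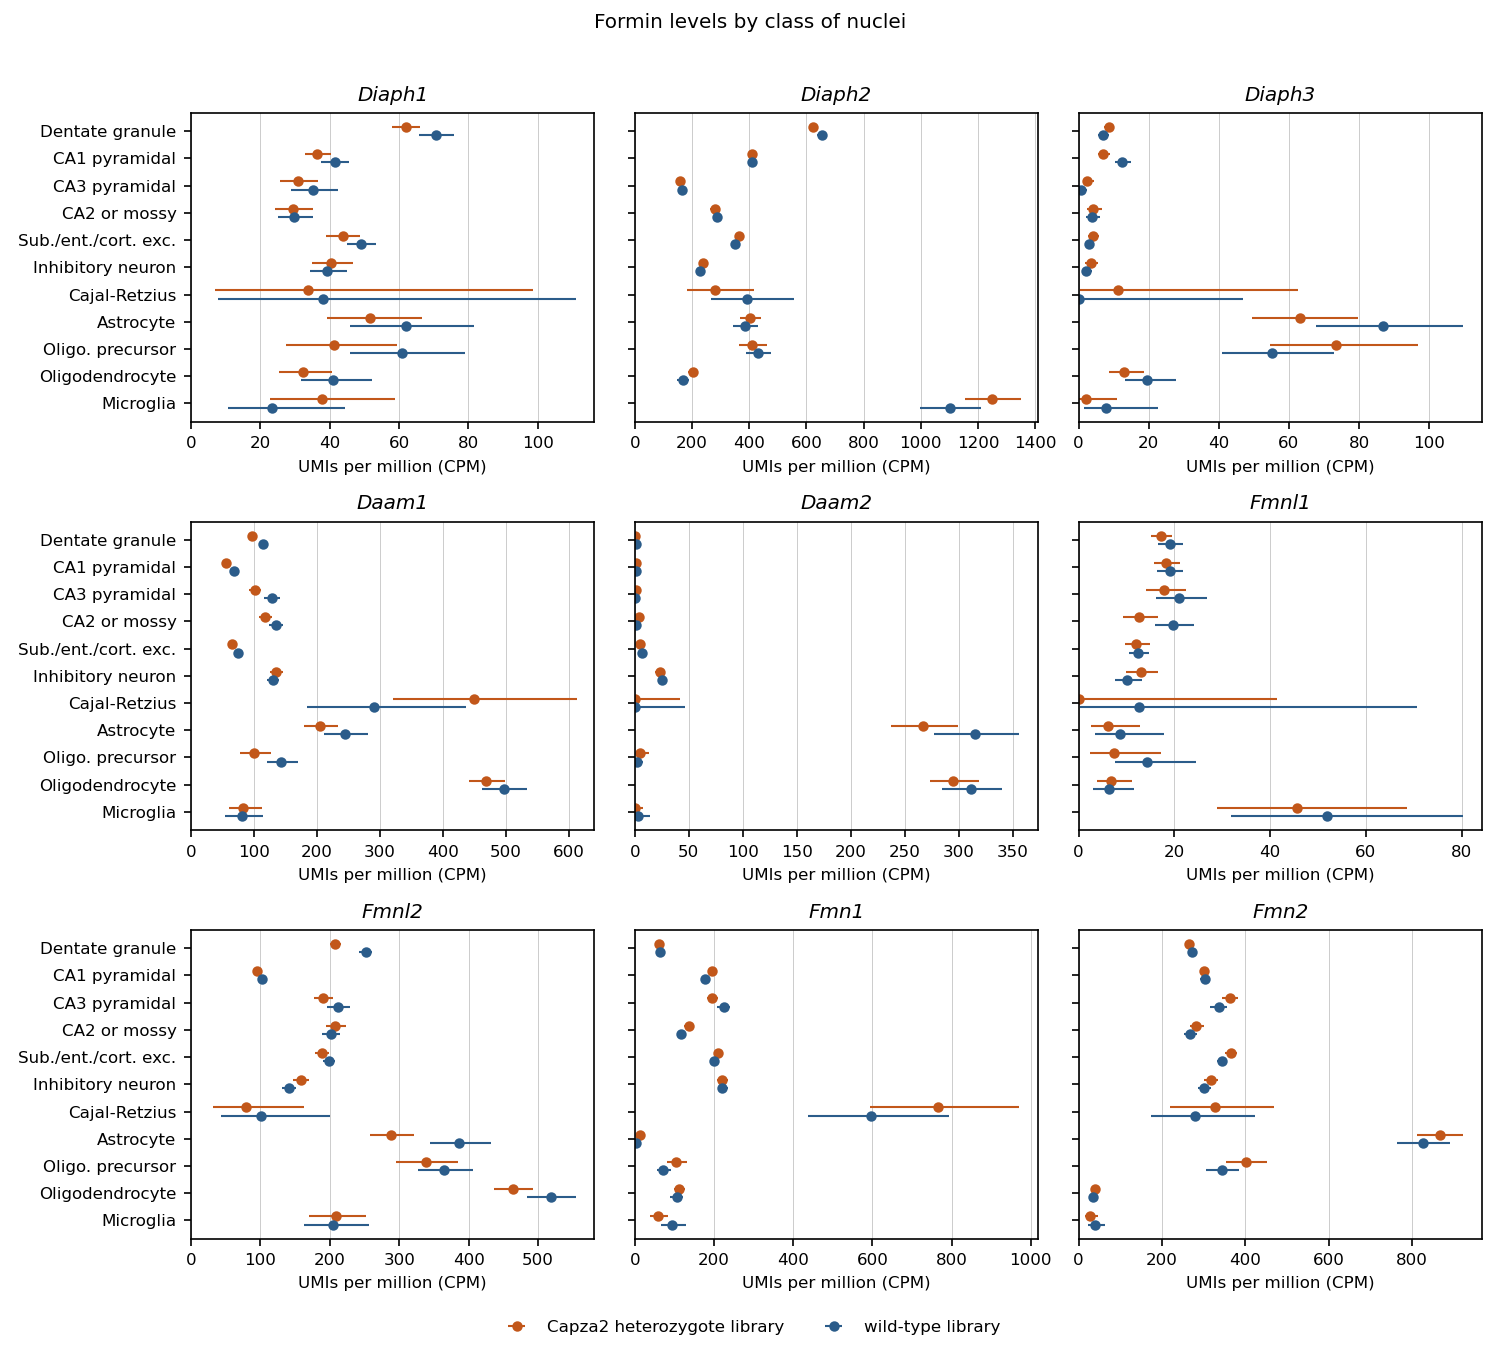
Level of each formin in CPM (horizontal axis, linear, a separate scale for each gene) in 11 classes of nuclei named by marker genes, with orange points for the heterozygote library and blue points for the wild-type library. Bars are exact Poisson 95% intervals of counting error. Diaph2 peaked in microglia-like nuclei, Daam1 in oligodendrocyte-like nuclei, Daam2 in oligodendrocyte-like and astrocyte-like nuclei, and Fmn2 in astrocyte-like nuclei, in each library.

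The diaphanous formins, Diaph1, Diaph2 and Diaph3, are the best known subfamily, with roles in stress fibres, filopodia and cell division. Diaph1 (ENSMUSG00000024456, minus strand) was the most even of the 9 across classes. Its mean level over the 2 libraries fell 2.17-fold from the highest to the lowest of the 8 classes. It was at 61.9 CPM in heterozygote and 70.6 in wild-type dentate granule-like nuclei, and at 51.6 and 62.0 in astrocyte-like nuclei, so the ranges of these classes overlapped. Here and below, classes overlap where the ranges spanned by their 2 library values do, whatever their counting intervals. Between inhibitory neuron-like nuclei (40.4 and 39.3 CPM) and microglia-like nuclei (37.7 and 23.4, from 19 and 9 UMIs) each class overlapped its neighbour in the order.

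Diaph2 (ENSMUSG00000034480; chrX:129749742-130465834 of GRCm38, plus strand) is an X-linked gene known from ovarian failure in people. It was highest in microglia-like nuclei, at 1249 CPM (629 UMIs) in the heterozygote and 1101 CPM (424 UMIs) in the wild-type library. Dentate granule-like nuclei followed at 622 and 653 CPM, and the lowest class compared was CA3 pyramidal-like, at 158 and 164 CPM. By their library values no 2 neighbouring classes in the order of Diaph2 overlapped, although the counting intervals of astrocyte-like nuclei (367 to 442 CPM in the heterozygote, 343 to 429 in the wild type) reached those of their neighbours. The order ran from microglia-like through dentate granule-like, CA1 pyramidal-like (411 CPM in each library), astrocyte-like (403 and 384), subicular or cortical excitatory-like (365 and 349), inhibitory neuron-like (240.1 and 229) and oligodendrocyte-like (203 and 168) to CA3 pyramidal-like nuclei. At least 1 UMI of Diaph2 was found in 77.4% (72.4 to 81.9) of heterozygote and 68.6% (62.1 to 74.5) of wild-type microglia-like nuclei, against 26.6% (24.0 to 29.3) and 24.0% (21.1 to 27.1) of oligodendrocyte-like nuclei (exact Clopper-Pearson intervals), whose median depth was higher (1754 and 1846 UMIs against 1465 and 1481). Thinned to 1000 UMIs per nucleus these shares were 65.6% and 59.2% against 18.1% and 14.1%. The female-specific transcript Xist, counted because Diaph2 lies on the X chromosome, had 56 UMIs over all heterozygote and 32 over all wild-type nuclei, near 0 in each library (1.005 and 0.597 CPM).

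Outside the classes compared, Diaph2 was also high in the small fibroblast or mural-like class (71 and 51 nuclei), at 863 CPM (754 to 983) in the heterozygote and 749.6 (642 to 870.1) in the wild-type library. Among the excitatory neurons it differed between clusters of 1 class. In the subicular or cortical excitatory-like class, cluster 12, with Fn1 and Rxfp1 among its leading genes, was at 497 and 443 CPM, and cluster 17, led by Foxp2, at 219 and 194. In both libraries, then, cluster 12 was above cluster 17. The dentate granule-like clusters were closer, at 551 and 600.4 CPM in cluster 0 and 676 and 673 in cluster 1.

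Diaph3 (ENSMUSG00000022021; chr14:86655367-87141235, minus strand), a formin known from filopodia, cell division and hereditary auditory neuropathy, was highest in astrocyte-like and precursor-like nuclei. Astrocyte-like nuclei were at 63.2 CPM in the heterozygote (71 UMIs) and 86.7 in the wild-type library (70 UMIs). Oligodendrocyte precursor-like nuclei, too few to be among the 8 classes, were at 73.4 and 55.3 CPM, from 50 UMIs in each library. Oligodendrocyte-like nuclei were at 13.03 and 19.6 CPM, and microglia-like nuclei at 1.99 and 7.79, from 1 and 3 UMIs. The 5 neuron-like classes lay between 0.645 CPM (CA3 pyramidal-like, wild type, 2 UMIs) and 12.5 CPM (CA1 pyramidal-like, wild type, 126 UMIs). The level in astrocyte-like nuclei was 7.68 times that in CA1 pyramidal-like nuclei, taken as means over the 2 libraries.

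Daam1 and Daam2, the Dishevelled-associated activators of morphogenesis, link Wnt signals to actin through Dishevelled. Daam2 is known as a brake on oligodendrocyte differentiation. Daam1 (ENSMUSG00000034574; chr12:71831078-71992333, plus strand) was highest in oligodendrocyte-like nuclei, at 469 CPM in the heterozygote and 497 in the wild-type library. Astrocyte-like nuclei came next, at 206 and 244 CPM. The neuron-like classes ran from 135 and 130.2 CPM in inhibitory neuron-like nuclei down to 56.1 and 68.6 in CA1 pyramidal-like nuclei, the lowest class compared. In the means over the 2 libraries, oligodendrocyte-like nuclei were at 7.75 times the level of CA1 pyramidal-like nuclei. Microglia-like nuclei were at 83.4 and 80.5 CPM, within the neuronal range.

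Daam2 (ENSMUSG00000040260; chr17:49456022-49564343, minus strand) was high in 2 glial classes and low elsewhere. It was at 295 CPM (657 UMIs) in heterozygote and 311 CPM (493 UMIs) in wild-type oligodendrocyte-like nuclei. Astrocyte-like nuclei were at 267 CPM (300 UMIs) and 315 CPM (254 UMIs), and these 2 classes overlapped. Inhibitory neuron-like nuclei were far lower, at 23.2 CPM (109 UMIs) and 25.3 CPM (137 UMIs), 12.5 times below oligodendrocyte-like nuclei in the means over the 2 libraries. The other 5 classes were at 6.46 CPM or less in each library, and dentate granule-like nuclei were at 0.523 and 0.911 CPM, from 8 and 10 UMIs. Microglia-like nuclei had 0 UMIs in the heterozygote library, where 3 UMIs, the limit that a count of 0 allows, would be 5.96 CPM, and 1 in the wild-type library. At least 1 UMI of Daam2 was found in 39.9% (37.1 to 42.9) of heterozygote and 41.9% (38.5 to 45.4) of wild-type oligodendrocyte-like nuclei, against 0.390% and 0.677% of the dentate granule-like nuclei, which were deeper (median 6545 and 6294 UMIs). Among inhibitory neuron-like nuclei Daam2 was also uneven. Cluster 11, led by Kcnmb2, Nxph1 and Sst, was at 27.6 and 33.3 CPM, cluster 18, led by Vip, at 22.9 and 20.9, and cluster 19, led by Hapln1 and Reln, at 1.71 and 1.16 CPM, from 1 UMI in each library.

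Because Daam1 and Daam2 were both high in oligodendrocyte-like and astrocyte-like nuclei, and Daam1 was the higher of the 2 in every neuron-like class compared, their promoters are shown for comparison. The letters are the 250 bases before the first RefSeq start of each gene, on build GRCm38.p6, read 5' to 3' on the gene's strand, at chr12:71830818-71831067 for Daam1 (plus strand) and at chr17:49564338-49564587 for Daam2 (minus strand). Capitals mark the GC box GGGCGG.
Daam1: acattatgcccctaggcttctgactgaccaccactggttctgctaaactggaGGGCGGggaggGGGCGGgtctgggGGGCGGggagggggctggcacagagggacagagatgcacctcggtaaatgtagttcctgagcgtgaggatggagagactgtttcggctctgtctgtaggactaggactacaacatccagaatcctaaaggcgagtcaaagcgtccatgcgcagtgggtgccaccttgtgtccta
Daam2: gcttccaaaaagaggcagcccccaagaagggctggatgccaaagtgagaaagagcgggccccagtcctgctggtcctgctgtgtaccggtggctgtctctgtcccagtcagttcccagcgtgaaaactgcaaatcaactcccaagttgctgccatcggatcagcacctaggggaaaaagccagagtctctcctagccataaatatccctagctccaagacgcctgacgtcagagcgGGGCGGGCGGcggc
The Daam1 window held GGGCGG 3 times and the Daam2 window 2 times, overlapping each other at the 3' end of the window. Other motifs were searched on both strands. The TATA-type word TATAAA had no match in either window, nor had the CCAAT box. The Sox-type word ACAATG had none, and the Sox-type word ACAAAG had none either. Of the 32851 promoter windows of this length, 32.7% held GGGCGG and 12.4% held TATAAA. The CCAAT box was in 33.9%. The words ACAATG and, separately, ACAAAG were in 10.7% and 16.5%. CpG dinucleotides numbered 9 and 10, against a median of 6 over all windows. RefSeq lists 2 starts for each of the 2 genes, and the second Daam1 window, farther downstream, held no GGGCGG. A match is a string of letters, not a shown binding site.

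Of the formin-like genes, Fmnl1 (ENSMUSG00000055805; chr11:103171107-103198901, plus strand), known as a formin of leukocytes, was highest in microglia-like nuclei, at 45.7 CPM in the heterozygote and 52.0 in the wild-type library. Those levels rest on 23 and 20 UMIs, each in a different nucleus. CA3 pyramidal-like (17.9 and 21.0 CPM), CA1 pyramidal-like (18.3 and 19.0) and dentate granule-like nuclei (17.2 and 19.1) overlapped each other below that. Oligodendrocyte-like nuclei were lowest, at 6.74 and 6.31 CPM, and overlapped astrocyte-like nuclei (6.23 and 8.67). The gene overlaps 1 antisense gene model, Gm20511, which had 9 UMIs in all. The sources used here do not say whether counting used the strand.

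Fmnl2 (ENSMUSG00000036053; chr2:52857860-53133804, plus strand), which elongates filaments in lamellipodia and filopodia, was highest in oligodendrocyte-like nuclei, at 464 and 518 CPM. Astrocyte-like nuclei were at 288 and 387 CPM. Dentate granule-like (208 and 252 CPM), microglia-like (208 and 205), CA3 pyramidal-like (190.2 and 212) and subicular or cortical excitatory-like nuclei (189 and 199) each overlapped the next class. CA1 pyramidal-like nuclei were lowest, at 94.5 and 102 CPM. The 2 clusters of that class differed: cluster 3, with Galntl6 and Fibcd1 among its leading genes, was at 50.1 CPM in the heterozygote and 52.4 in the wild-type library, and cluster 6, led by Man1a and Cpne7, at 159 and 162. Fmnl2 was thus about the same in the 2 libraries within each cluster and higher in cluster 6 in each.

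Fmn1 and Fmn2 are the formins after which the family is named. Fmn1 (ENSMUSG00000044042; chr2:113327736-113716767, plus strand), the gene of the mouse limb deformity mutants, was highest in the neuron-like classes other than dentate granule-like nuclei. Inhibitory neuron-like nuclei were at 221 CPM in each library, CA3 pyramidal-like nuclei at 196 and 224, subicular or cortical excitatory-like nuclei at 210.2 and 200.2 and CA1 pyramidal-like nuclei at 195 and 176, and CA3 pyramidal-like nuclei overlapped both the first and the third of these, which did not overlap each other. Dentate granule-like nuclei stood apart from the other excitatory classes, at 62.2 and 63.3 CPM. They were below oligodendrocyte-like nuclei (111 and 105 CPM) and overlapped microglia-like nuclei (57.6 and 93.5, from 29 and 36 UMIs). Astrocyte-like nuclei were lowest, at 13.4 CPM (15 UMIs) in the heterozygote and 2.48 CPM (2 UMIs) in the wild-type library. The 7 general excitatory markers, summed, were at 1059 CPM in heterozygote and 792 in wild-type astrocyte-like nuclei, 6 of 7 of them higher in the heterozygote and none at 0. Inhibitory neuron markers were at 505 and 385 CPM there, 5 of 8 higher. CA3 pyramidal markers went the other way, at 1684 and 1733 CPM, 2 of 7 higher. The part of these lists in the Fmn1 values was not tested.

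The highest level of Fmn1 in any class was in Cajal-Retzius-like nuclei, reelin-secreting neurons of the hippocampal fissure, at 765 CPM (594 to 970.2) from 68 UMIs in 37 heterozygote nuclei and 596 CPM (438 to 792) from 47 UMIs in 30 wild-type nuclei. Daam1 was at 450.2 (322 to 613) and 292 CPM (185 to 438) in those nuclei, above its level in every neuron-like class compared. Fmn1 also varied among the subicular or cortical excitatory-like clusters, from 115 and 117 CPM in cluster 12 to 333 CPM in each library in cluster 16, led by Vwc2l and Sntb1. Cluster 12, low in Fmn1, was the cluster of this class highest in Diaph2. Fmn1 overlaps 4 antisense gene models, of which Gm13963 had 5414 UMIs against 15765 for Fmn1, so reads of the 2 cannot be told apart if strand was not used in counting.

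Fmn2 (ENSMUSG00000028354; chr1:174501825-174822729, plus strand), known from the oocyte spindle and from dendritic spines, where it works with Spire proteins, was highest in astrocyte-like nuclei. They were at 866 CPM (973 UMIs) in the heterozygote and 825 CPM (666 UMIs) in the wild-type library. The 5 neuron-like classes lay in a narrow band, from 365 and 344 CPM in subicular or cortical excitatory-like nuclei to 265 and 272 in dentate granule-like nuclei. Oligodendrocyte-like (38.2 and 35.3 CPM) and microglia-like nuclei (27.8 and 39.0) were lowest and overlapped. A UMI of Fmn2 was found in 85.7% (81.6 to 89.2) and 81.3% (76.2 to 85.8) of astrocyte-like nuclei, against 2.82% (1.30 to 5.29) and 3.49% (1.52 to 6.77) of microglia-like nuclei. Thinned to 1000 UMIs the shares were 58.0% and 51.8% against 1.36% and 2.37%.

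Several formins differed between stages of the oligodendrocyte lineage. At a finer clustering (Leiden resolution 2) a precursor-like cluster (178 and 185 nuclei), a committed precursor-like cluster (20 and 13 nuclei) and 4 oligodendrocyte-like clusters were told apart. Fmn2 was at 438 CPM in heterozygote and 364 in wild-type precursor-like nuclei, at 89.6 and 109.9 in committed precursor-like nuclei, and between 16.0 and 50.4 in the 4 oligodendrocyte-like clusters. Daam2 went the other way, with 0 and 2 UMIs in precursor-like nuclei, 3 and 0 in committed precursor-like nuclei and 194 to 451 CPM in the 4 oligodendrocyte-like clusters. Daam1 was at 98.2 and 139 CPM in precursor-like nuclei and at 323 to 566 CPM in the oligodendrocyte-like clusters.

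Fmnl2 followed neither pattern. It was at 279 and 333 CPM in precursor-like nuclei, at 755 (575 to 974) and 728 CPM (545 to 952) in committed precursor-like nuclei, at 348 and 336 in oligodendrocyte-like cluster 4, and at 685 and 802 in cluster 17. Daam1 and Daam2 separated among the oligodendrocyte-like clusters: cluster 17 had the highest Daam2 (399.6 and 451 CPM) and the lowest Daam1 (323 and 379) of the 4. At the main resolution the same pattern stood between cluster 2, led by Opalin and Aspa, and cluster 5, led by Anln and Hapln2. Daam2 was at 242 and 248 CPM in cluster 2 and at 382 and 412 in cluster 5, while Daam1 was at 519 and 531 and at 387 and 443.

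**Figure D2:**
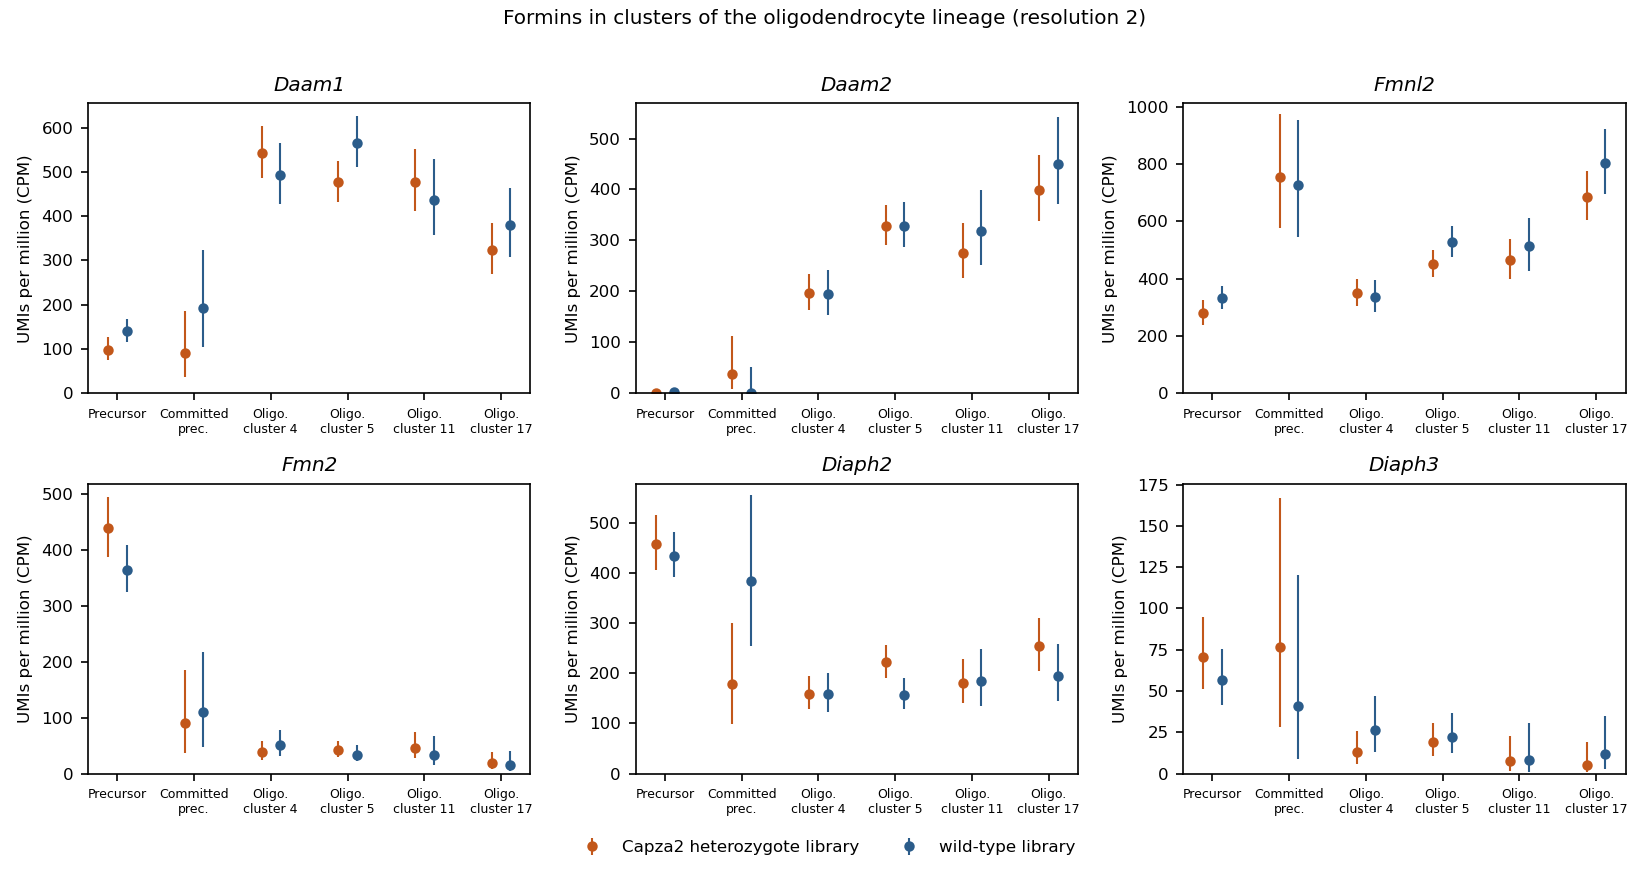
Level of 6 formins in CPM (vertical axis, linear, starting at 0) in clusters of the oligodendrocyte lineage at resolution 2, in the heterozygote (orange) and wild-type (blue) library, with exact Poisson 95% intervals of counting error. Fmn2, Diaph2 and Diaph3 were higher in precursor-like than in oligodendrocyte-like clusters, Daam1 and Daam2 lower, and Fmnl2 was highest in the committed precursor-like cluster and in cluster 17.

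The 9 formins thus had different class profiles. Over the 16 sums of 8 classes and 2 libraries, which share libraries and depth, Daam1 and Daam2 were the pair most alike (Pearson r of log2(CPM + 10) of 0.89), followed by Daam1 and Fmnl2 (0.86), Diaph3 and Daam2 (0.76) and Daam2 and Fmnl2 (0.76). Diaph3 and Fmn1 were the most opposed (-0.85). Over all genes with a symbol of their own, the genes most like Daam1 were Fgfr2 (0.97) and Wscd1 (0.96), and those most like Daam2 were Megf10 (0.996) and Abtb2 (0.99). Fmn2 was most like Lsamp (0.97) and Mir9-3hg (0.97), Fmn1 like Oxr1 (0.97) and Map7d2 (0.95), and Fmnl2 like Wscd1 (0.94) and Slc26a11 (0.92). Fmnl1 was most like Znrf2 (0.98) and Otulinl (0.97), Diaph1 like Nlgn3 (0.89) and Kcnc4 (0.89), Diaph2 like Rcc2 (0.94) and Cfap74 (0.94), and Diaph3 like Pln (0.96) and Itih3 (0.95). These values describe 16 points that are not independent.

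The formins were also compared between the 2 libraries. Of the 72 pairs of a formin and a class, 46 had at least 200 UMIs over both libraries and were compared. None was past 1.5-fold in either direction, where 0.515% of all 45421 gene and class pairs over the same floor were higher by that much in the heterozygote and 0.553% lower. With shares that low over all pairs, a count of 0 in 46 does not set the formins apart. The log2 ratio (heterozygote over wild type) ran from -0.42 for Fmnl2 in astrocyte-like nuclei to 0.32 for Diaph3 in dentate granule-like nuclei. It was below 0 in 29 of 46 pairs, against 56.6% of all pairs. The counting interval lay below 0 in 11 of 46 pairs, against 12.2% of all pairs, and above 0 in 5 of 46, against 8.95%. Counting intervals narrow as UMIs grow, and all pairs were not matched to the formins in UMIs, so these shares are not like for like. By class, the formins below 0 were 7 of 8 in dentate granule-like nuclei (50.9% of all genes over the floor there), 6 of 7 in CA1 pyramidal-like (62.0%), 5 of 6 in CA3 pyramidal-like (61.5%) and 4 of 7 in subicular or cortical excitatory-like nuclei (58.5%). They were 3 of 5 in astrocyte-like (53.1%), 3 of 5 in oligodendrocyte-like (48.2%), 1 of 7 in inhibitory neuron-like (58.4%) and 0 of 1 in microglia-like nuclei (47.8%). The count of 1 of 7 depends on 1 heterozygote barcode, which held 6.99% of the heterozygote UMIs of inhibitory neuron-like nuclei. Without barcodes over 100000 UMIs, 3 of the 46 pairs changed sign, with Diaph2 in inhibitory neuron-like nuclei among them.

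**Figure D3:**
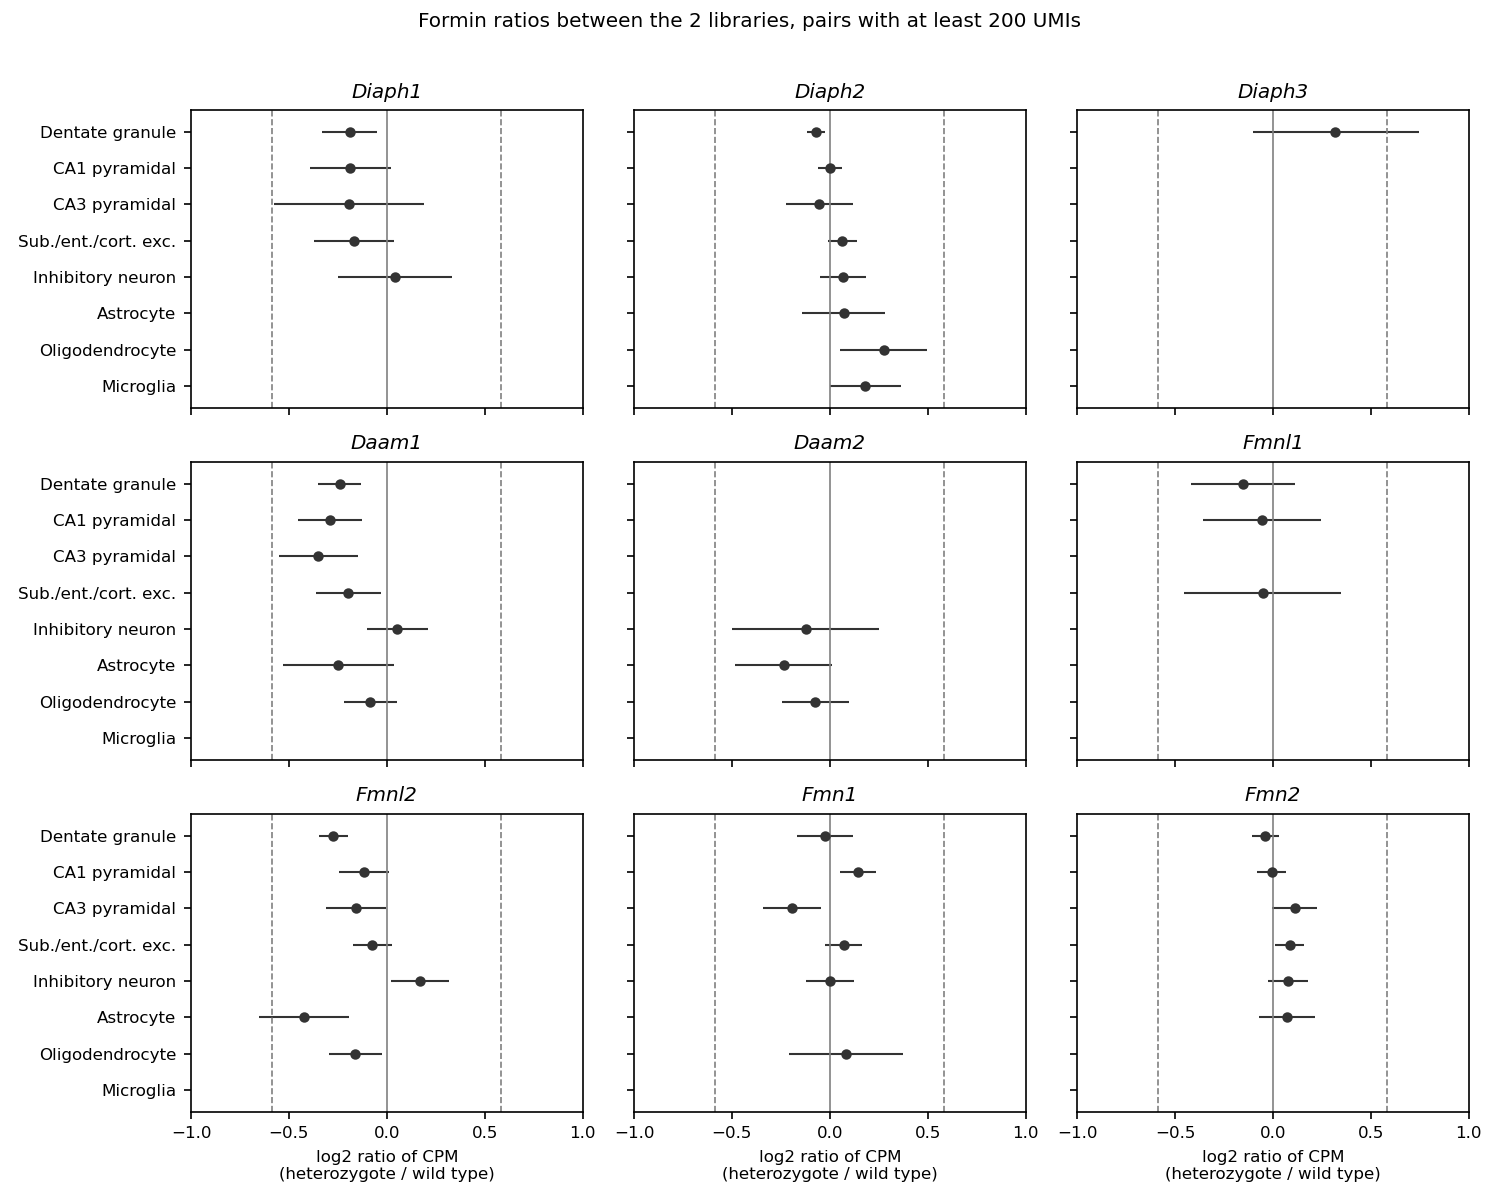
Log2 of the heterozygote CPM over that of the wild-type library (horizontal axis), for the 46 pairs of a formin and a class with at least 200 UMIs, with exact conditional binomial 95% intervals of counting error. Dashed lines mark 1.5-fold. No point lies beyond them, and Daam1 and Fmnl2 each lie below 0 in 6 of 7 classes.

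By gene, Daam1 and Fmnl2 had 4 each of the 11 intervals below 0. How many of all genes have as many classes or intervals below 0 is not given here. Daam1 was below the wild-type library in 6 of 7 classes, with a median of -0.24 and 4 intervals below 0. In CA3 pyramidal-like nuclei it was at 101 CPM in the heterozygote and 129 in the wild-type library (-0.35, -0.55 to -0.15), in CA1 pyramidal-like nuclei at 56.1 and 68.6 (-0.29, -0.45 to -0.13), in dentate granule-like nuclei at 97.0 and 115 (-0.24, -0.35 to -0.13) and in subicular or cortical excitatory-like nuclei at 64.7 and 74.1 (-0.20, -0.36 to -0.03). These are the 4 excitatory classes, but lower Daam1 was not confined to them. Astrocyte-like nuclei were at 206 CPM (231 UMIs) and 244 CPM (197 UMIs), and oligodendrocyte-like nuclei at 469 and 497, with intervals that held 0. Oligodendrocyte precursor-like nuclei, outside the classes compared, were at 99.9 CPM (68 UMIs) and 144 CPM (130 UMIs). In inhibitory neuron-like nuclei Daam1 was at 135 and 130.2 CPM (0.05, -0.10 to 0.21). The median ratio of all genes over the floor was between -0.05 and -0.0033 in the 4 excitatory classes.

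Fmnl2 was also below the wild-type library in 6 of 7 classes, with a median of -0.16. Astrocyte-like nuclei, at 288 CPM (324 UMIs) and 387 CPM (312 UMIs), gave the lowest ratio of the 46 (-0.42, -0.65 to -0.19). The 8 astrocyte markers, summed, were at 14709 and 14974 CPM in those nuclei and the 7 general excitatory markers at 1059 and 792. The 6 committed precursor markers, from a cluster high in Fmnl2, summed to 359 and 483 CPM, 1 of 6 higher in the heterozygote and 2 at 0. Markers of oligodendrocytes, the class highest in Fmnl2, went the other way, at 337 and 250 CPM, 6 of 8 higher. So did the precursor markers, at 2588.2 and 2428.5 CPM, 5 of 7 higher. The part of these lists in the ratio was not tested. Dentate granule-like nuclei, at 208 CPM (3181 UMIs) and 252 CPM (2762 UMIs), gave -0.27 (-0.35 to -0.20). The class has 2 clusters, cluster 0 with 1167 heterozygote and 599 wild-type nuclei and cluster 1 with 884 and 878, and Fmnl2 was lower in the heterozygote in each, at 198 and 239 CPM in cluster 0 and 216 and 256 in cluster 1. In inhibitory neuron-like nuclei the ratio was above 0, at 159 and 141 CPM (0.17, 0.02 to 0.32). A single heterozygote barcode with 328355 UMIs carried 84 of the 745 Fmnl2 UMIs there, and without barcodes over 100000 UMIs the ratio was 0.10. The 8 oligodendrocyte markers, from the class highest in Fmnl2, summed to 323 and 172 CPM in inhibitory neuron-like nuclei, all 8 higher in the heterozygote and none at 0. Astrocyte markers, from the class next highest in Fmnl2, were about the same there, at 289 and 291 CPM, 5 of 8 higher. The part of either list was not tested.

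Diaph2 was higher in heterozygote oligodendrocyte-like nuclei, at 203 CPM (452 UMIs) and 168 CPM (266 UMIs), a log2 ratio of 0.27 (0.05 to 0.50). The 10 microglia markers, from the class highest in Diaph2, summed to 117 CPM in heterozygote and 73.2 in wild-type oligodendrocyte-like nuclei, 9 of 10 of them higher in the heterozygote and none at 0. Precursor markers summed to 189 and 127 CPM, 6 of 7 higher. Dentate granule markers, from the class next highest in Diaph2, were at 372 and 333 CPM, 7 of 8 higher. CA1 pyramidal markers, from the class after that, went the other way, at 257 and 315 CPM, 2 of 7 higher. The part of these lists in the Diaph2 values was not tested. In microglia-like nuclei, where it peaked, it was at 1249 and 1101 CPM (0.18, 0.0014 to 0.36). In dentate granule-like nuclei, with the most UMIs of any pair, it was lower by a little, at 622 and 653 CPM (-0.07, -0.12 to -0.03). It was lower in the heterozygote in cluster 0 (551 and 600.4 CPM) and not in cluster 1 (676 and 673). Cluster 0 had 1167 heterozygote and 599 wild-type nuclei and cluster 1 had 884 and 878. The part of this makeup in the ratio was not tested. The single deep barcode carried 178 of the 1128 heterozygote UMIs of Diaph2 in inhibitory neuron-like nuclei, and leaving it out took that ratio from 0.07 to -0.08.

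Fmn1 was at 195 and 176 CPM in CA1 pyramidal-like nuclei (0.14, 0.05 to 0.24) and at 196 and 224 in CA3 pyramidal-like nuclei (-0.19, -0.34 to -0.04). With 10% of barcodes removed as doublets in both libraries the latter ratio was 0.07, but the new clustering then put 359 and 433 nuclei in the CA3 pyramidal-like class and left no separate CA2 pyramidal or hilar mossy-like class. Fmn2 was within 0.11 of 0 in all 6 classes over the floor, and its interval left 0 only in subicular or cortical excitatory-like nuclei (0.09, 0.01 to 0.16). Diaph1 was below 0 in 4 of 5 classes, with an interval below 0 in dentate granule-like nuclei only (-0.19, -0.33 to -0.05). Daam2 (3 classes, -0.24 to -0.08) and Fmnl1 (3 classes, -0.15 to -0.05) had intervals that held 0. Under the floor, chosen after its values were seen, Diaph3 in CA1 pyramidal-like nuclei had 70 UMIs in the heterozygote and 126 in the wild-type library, at 7.04 and 12.5 CPM (-0.83, -1.27 to -0.39). It was lower in both clusters of that class, at 7.47 and 14.1 CPM in cluster 3 and 6.41 and 10.6 in cluster 6.

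**Figure D4:**
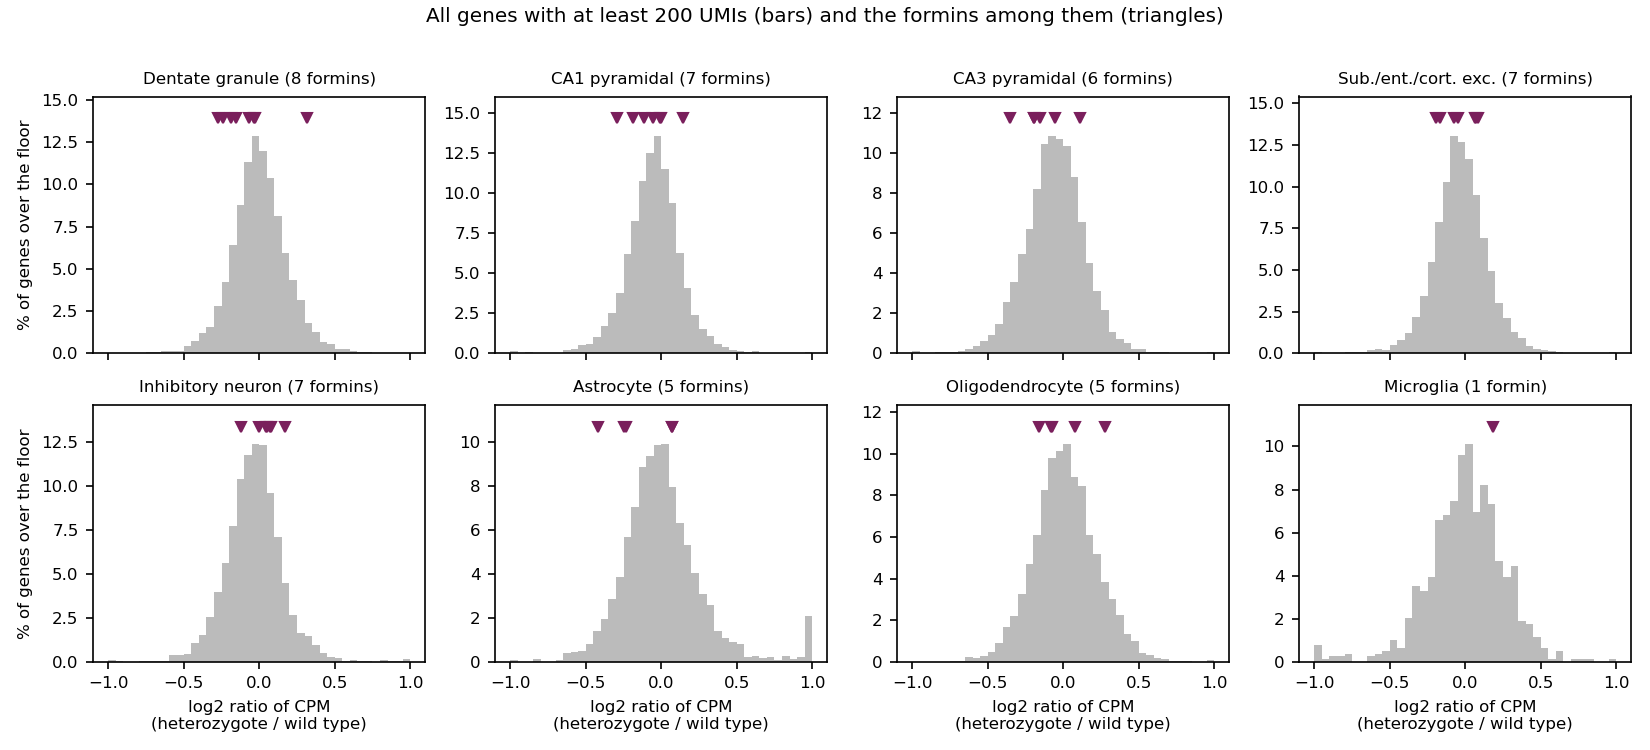
Share of all genes over the floor (vertical axis, %) by log2 of the heterozygote CPM over that of the wild type (horizontal axis, with values beyond the ends counted in the end bins), in the 8 classes, with triangles at the ratios of the formins over the floor. The formins lie within the spread of all genes in each class.

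Over all nuclei the log2 ratios of the 9 formins lay between -0.10 (Daam1, 109 and 117 CPM) and 0.08 (Daam2, 24.3 and 23.0 CPM), where 0.747% of all 14457 genes over the floor were past 1.5-fold higher and 0.671% lower, and no formin was. These values mix levels with the makeup of the libraries. The heterozygote library had the larger share of oligodendrocyte-like nuclei, 16.6% against 13.1%, and of dentate granule-like nuclei, 30.2% against 24.2%. With the class makeup made equal, Daam2 was at 19.9 CPM in the heterozygote and 22.9 in the wild-type library, a log2 ratio of -0.20, Diaph3 moved from 0.06 to -0.16, Diaph2 from 0.06 to -0.05 and Fmn1 from -0.07 to 0.09. Daam1 was at -0.19, Diaph1 at -0.18, Fmnl2 at -0.16, Fmnl1 at -0.13 and Fmn2 at 0.05.

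Genes that compete with, bind or feed formins were compared in the same way, in lists written with earlier results of these data known. Of the capping protein subunits, 2 of 20 gene and class pairs over the floor were past 1.5-fold lower and none higher, and 18 of 20 were below 0, against 0.553% and 56.6% of all pairs. Both were Capza2, the knocked-out gene, in subicular or cortical excitatory-like nuclei (46.1 and 69.9 CPM, -0.60) and oligodendrocyte-like nuclei (109 and 165 CPM, -0.59). Capza2 was over the floor and below 0 in each of the 8 classes compared, so 8 of the 18 are its own pairs and the rest are of Capza1 and Capzb. That count therefore does not describe the other subunits alone. Capza1, the other widely expressed alpha subunit, was between -0.14 and 0.09 in the 6 classes over the floor. Capzb, the beta subunit, was at 31.7 and 44.9 CPM in CA3 pyramidal-like nuclei (-0.50, -0.85 to -0.14) and at 31.1 and 42.0 in inhibitory neuron-like nuclei (-0.44, -0.75 to -0.13).

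Of the profilins, which carry actin to formins, and the Spire nucleators, none of 23 pairs passed 1.5-fold. Of the 23, 12 were below 0, against 56.6% of all pairs. Spire1, the partner of Fmn2, was highest in astrocyte-like nuclei, at 314 and 352 CPM, the class where Fmn2 was highest too. Pfn2 ran from -0.08 to 0.23 and Pfn1 from -0.10 to 0.33, and Spire2 was between -0.22 and 0.13.

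The Ena/VASP proteins, another group that elongates filaments against capping protein, had no pair of 12 past 1.5-fold and 10 below 0, against 56.6% of all pairs below 0. Enah was at 337 and 400.2 CPM in astrocyte-like nuclei (-0.25, -0.46 to -0.03), and Evl was at 49.4 and 57.0 in CA1 pyramidal-like nuclei (-0.21, -0.39 to -0.03). Of the list of Dishevelled genes and other formin partners, 1 of 41 pairs was past 1.5-fold lower, against 0.553% of all pairs, and 28 were below 0, against 56.6%. The 1 pair was Dvl1 in CA3 pyramidal-like nuclei (23.3 and 35.5 CPM, -0.61, -1.02 to -0.20). Dvl1 was between -0.02 and 0.10 in the other 4 classes over the floor. Srgap2, whose protein binds Fmnl1, was below 0 in 8 of 8 classes (-0.38 to -0.06), with 5 intervals below 0. How many of all genes lie on 1 side of 0 in every class is not given here, for Srgap2 or for Baiap2. The classes also share the same 2 libraries. Baiap2, an adaptor of actin regulators at membranes, was above 0 in 6 of 6 classes (0.10 to 0.55), Apc lay between -0.08 and 0.09, and Cobl between -0.52 and -0.06. The other vertebrate formins, 6 genes of which Fhod3, Inf2 and Fmnl3 passed the floor over all nuclei, had none of 6 pairs past 1.5-fold. Of these pairs, 5 were below 0, against 56.6% of all pairs. Fhod3 was at 94.3 and 118 CPM in inhibitory neuron-like nuclei (-0.32, -0.50 to -0.14), and Inf2, highest in oligodendrocyte-like nuclei at 86.7 and 96.6 CPM, was at 0.49 (0.11 to 0.87) in CA1 pyramidal-like nuclei.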

How the data were processed

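Single-nucleus libraries (10x Genomics 3' v3) of mouse hippocampus were compared, 1 per genotype. The deposited matrices hold UMI counts per gene and barcode, whole numbers that the authors did not normalize. Cell Ranger 7.1.0 and the build mm10 are named in the submitters' processing notes. The treatment of introns and strand is not described there. All barcodes held at least 500 UMIs. The formins and the gene lists were chosen with earlier results of these data known.

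Barcodes with at least 500 genes and at most 5% mitochondrial UMIs were kept (7211 heterozygote, 6424 wild type). The highest Scrublet scores were removed as likely doublets, up to 0.8% per 1000 barcodes (416 and 330). Counts scaled to 10000 per nucleus were clustered jointly (2000 variable genes without formins and partner genes, 30 principal components, 15 neighbours, Leiden resolution 1; Python 3.11.15, scanpy 1.11.5, leidenalg 0.10.2, numpy 2.4.6, scipy 1.17.1). Clusters were named from fixed marker lists (at least 3 markers). The naming rule was revised after the data were seen: joint names were given where 2 types could not be separated, and a cluster was called mixed if its mean doublet score reached 2 times the overall mean and its median depth exceeded that of the biggest cluster with the same name. Classes were built from the same nuclei, so no class was tested against another.

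UMIs were summed per class and library and given as CPM with exact Poisson intervals, and shares of nuclei with exact Clopper-Pearson intervals. Ratios have exact conditional binomial 95% intervals, and were tested on simulated counts. Genes were counted only with at least 200 UMIs in a class over both libraries. A gene was counted as past the threshold at 1.5-fold. Classes needed 200 nuclei in each library. Named were all 9 formins, of each partner list up to 4 genes with the most UMIs (Capza1, Capza2 and Capzb always), and the 2 genes most alike each formin. One of the partner lists is not reported here. Dvl1 falls outside this rule and was named for passing 1.5-fold, after its values were seen. Of 12 alternatives, 1 was added after the data were seen. Gene positions are from GENCODE M21 (GRCm38), in which 32235 of 32285 gene identifiers were found. RefSeq promoters matched 8 of the 9 formins.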

Additional observations from a re-analysis of the deposited data

Results flagged for a closer look

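For 3 formins the counting intervals of the log2 ratio (heterozygote over wild-type library) lay above 0 in some classes and below 0 in others. With 1 library per genotype, the differences between classes were not tested. Of all gene and class pairs, 8.95% had an interval above 0 and 12.2% had one below 0. The share of all genes with intervals on both sides of 0 is not given here, so the 3 stand without a background. Diaph2 was at 0.27 in oligodendrocyte-like and 0.18 in microglia-like nuclei, and at -0.071 in dentate granule-like nuclei. Of the dentate granule-like clusters, it was lower in the heterozygote in cluster 0 (551 and 600.4 CPM) and not in cluster 1 (676 and 673). With doublets kept the microglia-like value was 0.05, and over the alternatives the oligodendrocyte-like value ran from 0.17 (every nucleus weighted alike) to 0.45 (thinned to 1000 UMIs). Fmnl2 was at 0.17 in inhibitory neuron-like nuclei and below 0 in dentate granule-like (-0.27), oligodendrocyte-like (-0.16), astrocyte-like (-0.42) and CA3 pyramidal-like nuclei (-0.16). In inhibitory neuron-like nuclei Fmnl2 was at 0.10 without barcodes over 100000 UMIs, 1 of which carried 84 of its 745 heterozygote UMIs, and ran from 0.07 to 0.20 over the alternatives that kept it over the floor. Over those that kept each pair it stayed between -0.47 and -0.38 in astrocyte-like nuclei and between -0.29 and -0.19 in dentate granule-like nuclei. Fmn1 was at 0.14 in CA1 pyramidal-like and -0.19 in CA3 pyramidal-like nuclei, and the latter was 0.07 with 10% of barcodes removed as doublets, where the CA3 pyramidal-like class also grew from 219 and 209 to 359 and 433 nuclei.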

How the results depend on the processing

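No formin was past 1.5-fold higher under any of the 12 alternatives. The count past 1.5-fold lower, 0 as reported, was 1 with doublets kept and 1 with 10% of barcodes removed as doublets, Diaph3 in CA1 pyramidal-like nuclei each time (-0.83 and -0.78), which was then over the floor. It was 3 of 59 pairs with a floor of 50 UMIs (Diaph3 in CA1 pyramidal-like and oligodendrocyte-like nuclei, Fmn1 in microglia-like nuclei) and 2 with the lower fold threshold tried (Daam1 in CA3 pyramidal-like and Fmnl2 in astrocyte-like nuclei). The partner genes past 1.5-fold, 3 as reported, were 1 after thinning, 10 with a floor of 50 UMIs, 19 with the lower fold threshold and 1 when scaled by the median ratio of genes. The shares of all genes at the lower floor and the lower fold are not given here, so these counts stand without a background. The class with the highest level stayed for all 9 formins except at resolution 2 (8 of 9, Fmn1 then highest in subicular or cortical excitatory-like nuclei, a class then of 3 clusters with 251, 238 and 156 nuclei while other excitatory clusters stayed unnamed) and, with 7 of 9, after thinning, in the largest cluster of each class and with every nucleus weighted alike, where Daam2 was highest in astrocyte-like nuclei and Fmn1 as at resolution 2. The sign of 6 pairs changed with 10% removed, of 4 in the largest clusters, of 3 each with doublets kept, other scaling, equal weights or barcodes over 100000 UMIs left out, and of 2 of the 20 pairs left after thinning. Of those 20 pairs, 7 had a thinned ratio outside the counting interval reported above. The causes were not tested. No paired analysis was possible because each genotype has 1 library. Depth limits Diaph3, Fmnl1 and Daam2, which were over the floor in 1, 3 and 3 of the 8 classes.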
